A study of Homo sapiens with 14 samples.

Results

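Replication-dependent histone genes encode the bulk histones that package newly made DNA. On human chromosome 6 they were taken as the protein-coding genes between 26 and 28.2 Mb (hg38, GENCODE release 44) whose symbol begins with H1-, H2AC, H2BC, H3C or H4C. The rule found 53 of the 75 coding genes of the interval, and 19970 coding genes were counted on the autosomes and X. They comprised 6 linker H1 genes, 11 H2A, 14 H2B, 10 H3 and 12 H4 genes. The other 22 coding genes of the interval include HFE, an iron regulator, butyrophilin genes (BTN), zinc finger genes and olfactory receptor genes (OR2B). The chromatin data came from TC-32, an established Ewing sarcoma cell line, grown without treatment. The study asked which chromatin states the fusion oncoprotein EWSR1::FLI1 of this tumour type occupies, and measured binding by CUT&RUN, in which a nuclease tethered to an antibody releases the DNA beside its target. All 14 libraries are from wild-type TC-32 cells and carry the letter A or B, which the labels leave undefined, and a replicate number. The FLI1 libraries are called A1, A2, B1 and B2 by letter and number, and values of the 4 are given in that order. H3K27ac was mapped in A1 and A2, H3K9me3 and H3K27me3 in B1 and B2, and 4 IgG libraries served as controls in the authors' peak calling. The antibody is listed as FLI1, so fusion and unfused FLI1 cannot be told apart in these lists. A single line stands for the tumour type, and nothing in the labels says that replicates came from separate cultures, so p-values measure the spread between these libraries only.

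Transcription of these genes rises as cells enter S phase. NPAT, a coactivator phosphorylated by cyclin E with CDK2, gathers at the clusters in nuclear bodies called histone locus bodies, HINFP binds H4 promoters and OCT1 (POU2F1) binds H2B promoters. The genes have no introns and their messengers end in a stem-loop bound by SLBP instead of a poly(A) tail. Many H2A and H2B genes lie head to head and share the stretch between their starts. H3K27ac marks active promoters and enhancers, H3K9me3 marks heterochromatin and many zinc finger genes and repeats, and H3K27me3 is laid down by Polycomb. EWSR1::FLI1 keeps the DNA-binding domain of FLI1, which reads the letters GGAA and, in this tumour, also runs of GGAA repeats.

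Of 53 histone genes, 26 (49.1%) had a FLI1 region within 1 kb of the start in every FLI1 library, against 33.8% of all coding genes. A FLI1 region was absent from every library at 10 (18.9%), against 45.9%. Of the 10 without FLI1, 8 carried H3K9me3 in both libraries, against 2.32% of all coding genes without FLI1. Only 3 genes (5.66%, against 11.3%), the linker histone genes H1-2, H1-3 and H1-4, had H3K27ac in both libraries. No histone gene had H3K27me3 in either library, where 11.8% of all coding genes had it in at least 1.

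The sequences of 3 pairs of like promoters show what the genes with and without FLI1 look like before their start. They were read from hg38 and are written in lower case, 5′ to 3′. Capitals mark TATAAA (the TATA box), CCAAT (the site of the factor NF-Y), TTTGCAT (most of the octamer of OCT1), AAACACA (an element of H1 promoters), GGTCCG (the core of the HINFP element of H4 promoters) and CCGGAA (a site of ETS factors, the family of FLI1), each on either strand; adjoining or overlapping matches run together. The head-to-head pair H2BC12 and H2AC12 (chr6:27146856-27147105, forward strand) had the strongest FLI1 region of the pairs. Its summits lay 605 to 901 bases downstream of the H2BC12 start, outside the printed stretch. In A1 and A2 the region reached only 24 and 23 bases into that stretch. The pair H2AC14 and H2BC14 (chr6:27814778-27815021, forward strand) had H3K9me3 and no FLI1. The next 4 lines give the 150 bases before the start of H1-2 (chr6:26056471-26056620, reverse strand), with FLI1 and H3K27ac, H1-6 (chr6:26108136-26108285, reverse strand), with H3K9me3 and no FLI1, H4C3 (chr6:26103783-26103932, forward strand), with FLI1 in every library, and H4C6 (chr6:26240243-26240392, forward strand), with H3K9me3 and no FLI1.
H2BC12 to H2AC12: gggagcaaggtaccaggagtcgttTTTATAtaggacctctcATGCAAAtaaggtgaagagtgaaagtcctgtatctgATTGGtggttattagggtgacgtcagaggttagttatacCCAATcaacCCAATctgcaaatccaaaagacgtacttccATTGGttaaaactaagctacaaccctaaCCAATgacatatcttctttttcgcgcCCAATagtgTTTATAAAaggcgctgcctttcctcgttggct
H2AC14 to H2BC14: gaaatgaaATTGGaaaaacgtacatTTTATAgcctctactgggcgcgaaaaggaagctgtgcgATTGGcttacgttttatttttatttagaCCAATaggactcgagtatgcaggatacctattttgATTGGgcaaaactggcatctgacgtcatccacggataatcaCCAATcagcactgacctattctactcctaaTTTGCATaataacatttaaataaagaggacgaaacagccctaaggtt
H1-2: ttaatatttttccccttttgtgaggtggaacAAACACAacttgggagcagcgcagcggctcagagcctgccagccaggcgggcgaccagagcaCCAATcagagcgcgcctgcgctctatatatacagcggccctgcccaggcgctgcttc
H1-6: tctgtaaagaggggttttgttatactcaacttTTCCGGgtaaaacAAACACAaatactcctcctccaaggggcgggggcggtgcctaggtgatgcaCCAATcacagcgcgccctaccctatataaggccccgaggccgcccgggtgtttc
H4C3: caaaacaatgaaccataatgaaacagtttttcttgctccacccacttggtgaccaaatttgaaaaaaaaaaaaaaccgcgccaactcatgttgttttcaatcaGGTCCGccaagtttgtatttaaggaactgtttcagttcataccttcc
H4C6: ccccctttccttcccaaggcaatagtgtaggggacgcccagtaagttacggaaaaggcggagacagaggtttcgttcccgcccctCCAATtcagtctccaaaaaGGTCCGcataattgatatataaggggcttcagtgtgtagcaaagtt

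The pairs shared the elements of their class. Both head-to-head stretches held the TATA box, the NF-Y site and the octamer part, both H1 promoters the H1 element and the NF-Y site, and both H4 promoters the HINFP core. Of the printed stretches of the H4 pair, that of H4C6 alone also held the NF-Y site. The longer search described next found CCAAT before both H4C3 and H4C6. CCGGAA was found in the printed promoter of H1-6, which had no FLI1 region in any library, and in none of the other 5 stretches. A match is a description of letters and not of a bound site.

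The same searches over the 250 bases before each start described all members. TATAAA was found at 34 of 53 histone genes (64.2%, against 10.04% of all coding genes), CCAAT at 46 (86.8% against 33.2%) and TTTGCAT at 20 (37.7% against 3.67%). TTTGCAT was found at 9 of 11 H2A and 10 of 14 H2B genes. AAACACA was found at 6 of 6 H1 genes and at no other histone gene, against 4.49% of all coding genes. GGTCCG was found at 9 of 12 H4 genes and at 10 of all 53 (18.9%), against 10.4% of coding genes. CCGGAA was found at 3 of 53 histone genes (5.66%) against 15.6% of coding genes: at 1 of the 26 with FLI1 in every library, 0 of the 17 with FLI1 in 1 to 3 libraries and 2 of the 10 with none. The shorter GGAA, which also lies within CCGGAA, was found at 48 histone genes (90.6%) and at 91.99% of coding genes. The median GC content of these stretches was 42.4% for histone genes, 45.6% for the other genes of the interval and 59.6% for all coding genes.

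The clusters fell into 3 groups of starts separated by over 200 kb. The first held 32 genes over 268 kb (starts from 26017787 to 26285638), the second 5 genes over 14.3 kb (27132795 to 27147106) and the third 16 genes over 85.5 kb (27807929 to 27893425). FLI1 was present in every library at 17, 4 and 5 genes of these groups and in none at 4, 1 and 5. H3K9me3 was present in both libraries at 4, 1 and 4 genes. H3K27ac in both libraries was found in the first group alone, at 3 genes. H2AC1 (start 25726562) and H2BC1 (start 25726777), histone genes just before the interval, had no region of any antibody. Of the 10 genes without FLI1, H4C6 and H4C7 were neighbours among the members, as were H3C10, H2AC14 and H2BC14, and H3C11 and H4C13, while H1-1, H1-6 and H4C9 stood beside genes with FLI1, as the map of regions by gene shows.

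**Figure D1:**
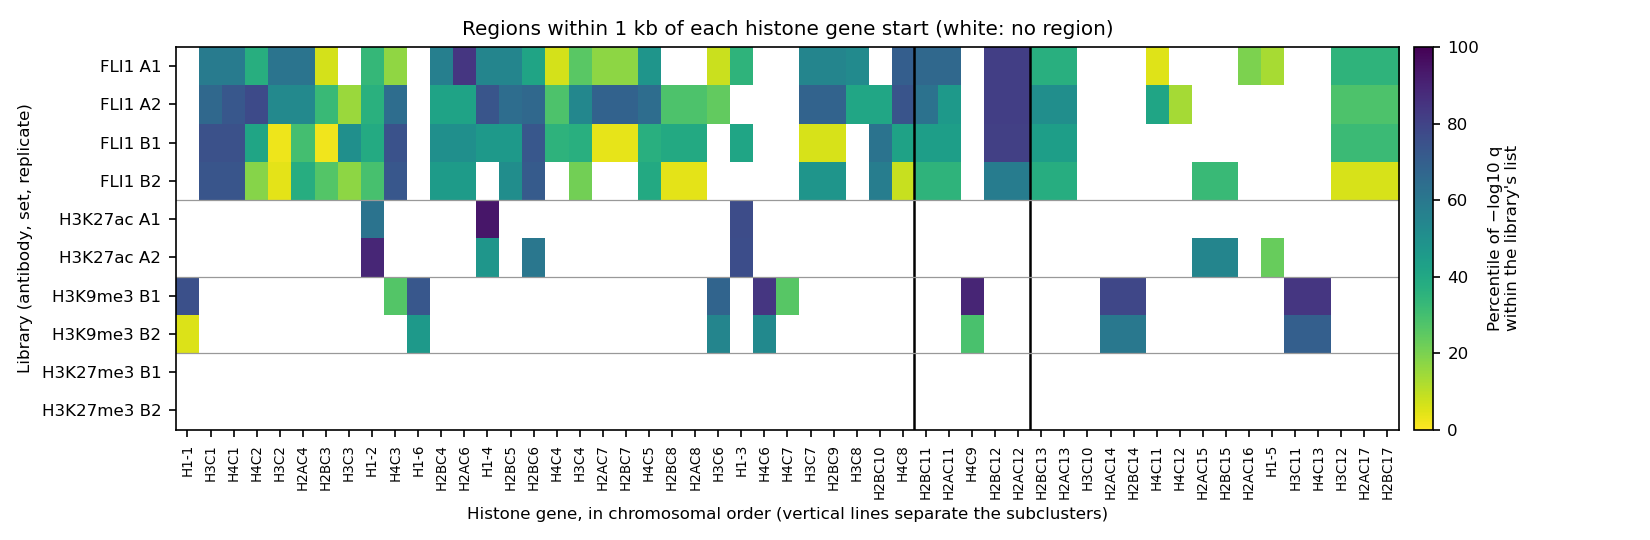
Each column is 1 of the 53 histone genes in chromosomal order and each row 1 of the 10 libraries; colour gives the percentile, within the library's own list, of the −log10 q of the most significant region within 1 kb of the start, and white means no region. FLI1 rows are filled at most genes, H3K9me3 appears mainly in columns where the FLI1 rows are white, H3K27ac appears at 7 genes and H3K27me3 at 0.

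FLI1 regions were frequent at histone gene starts in each of the 4 libraries. Library A1 had a region at 36 genes (67.9%), where 40.7% of all coding genes did, and A2 at 38 (71.7%), against 40.4%. Library B1 had one at 35 (66.0%), against 49.7%, and B2 at 32 (60.4%), against 46.3%. The other coding genes of the interval had shares of 31.8%, 45.5%, 45.5% and 40.9%. The histone share was the higher in every library, and the 2 groups of values did not overlap. With a −log10 q of at least 5 the histone shares were 50.9%, 67.9%, 54.7% and 47.2%. All coding genes then had 37.5%, 38.2%, 48.2% and 43.9%, and the others 27.3%, 40.9%, 40.9% and 40.9%. At this threshold the excess was smallest in B2. The mean share was 66.5% ± 4.72 (SD, n = 4 libraries) for histone genes and 40.9% ± 6.43 (SD, n = 4 libraries) for the others. The difference was 25.6 percentage points ± 7.61 (SD, n = 4 libraries), between 19.5 and 36.1, with a two-sided exact sign-flip permutation p = 0.12, the smallest that 4 libraries allow. The difference was larger than its spread between libraries, but a test over 4 libraries cannot pass the usual threshold.

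FLI1 in every library was found at 26 of 53 histone genes (49.1%), 6 of 22 others and 33.8% of all coding genes. FLI1 in no library was found at 10 histone genes, 10 others and 45.9% of all coding genes. The remaining 17 histone genes (32.1%) had FLI1 in 1 to 3 libraries, against 20.3% of all coding genes. H3C6, H3C8 and H4C11 had it in A1 and A2 and not in B1 or B2, a pattern shared by 217 coding genes (1.09%). No histone gene showed the reverse, which 1109 coding genes did (5.55%). H1-4, H4C4, H2AC7 and H2BC7 lacked a region in B2 alone, as did 1.23% of coding genes. H3C3, H2BC8, H2AC8 and H2BC10 lacked one in A1 alone, as did 2.52%.

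**Figure D2:**
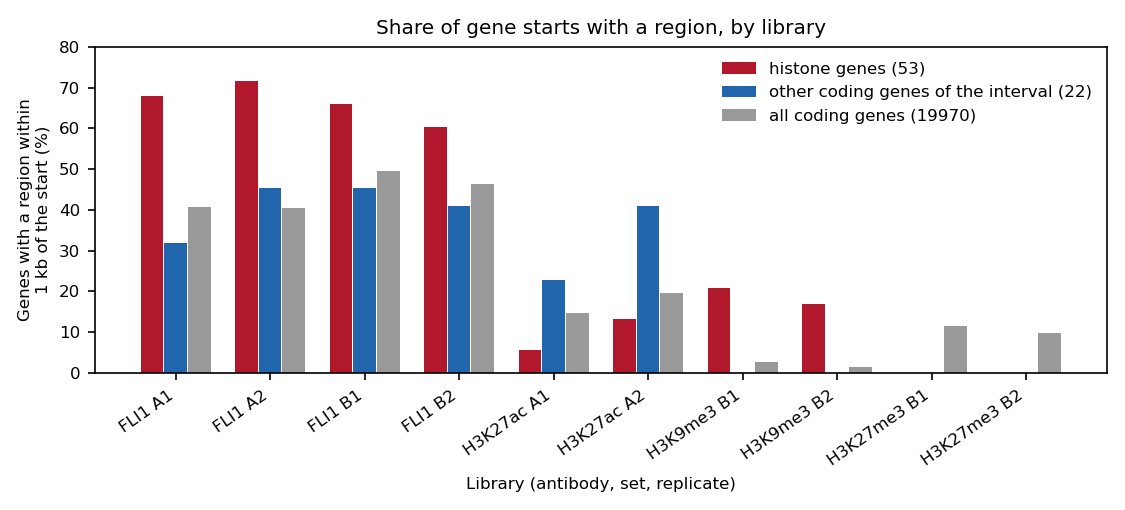
Bars give the percent of genes with a region within 1 kb of the start in each of the 10 libraries, for the 53 histone genes, the 22 other coding genes of the interval and all 19970 coding genes. Histone genes have the highest FLI1 and H3K9me3 bars in each library, the other genes of the interval the highest H3K27ac bars, and H3K27me3 bars are seen for all coding genes alone.

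Genes were close together, and neighbouring windows shared regions. The 53 windows joined into 35 separate stretches, while the 22 others stayed apart. The gene-level counts of FLI1 rested on 26, 28, 24 and 22 distinct regions in the 4 libraries, taking the most significant region of each window. With joined windows counted once the FLI1 difference stayed above 0 in 4 of 4 libraries. Uniqueness of sequence was alike in both groups: a median of 98.4% of the 50-base stretches of a histone window occurred once in the genome (lowest 76.4%), against 98.1% for the others (lowest 73.9%). Of the genes with printed promoters, the head-to-head pairs had the lowest shares. These were 86.3% at H2BC12 and 83.6% at H2AC12, with FLI1, and 82.0% at H2AC14 and 82.7% at H2BC14, without FLI1. The gene ENSG00000282988, counted among the others, shares its start with H2AC7.

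The FLI1 regions at histone genes ranked below those at other coding starts by their medians. The median percentile of their −log10 q was 37.0, 53.3, 41.1 and 36.4. Regions at all coding starts had medians of 65.6, 66.1, 71.8 and 69.0, and those at the other genes of the interval 75.1, 72.3, 83.7 and 62.8. The histone median was below that of all coding starts in every library, by 26.2 percentile points ± 9.05 (SD, n = 4 libraries; two-sided exact sign-flip permutation p = 0.12, the smallest possible), and below that of the other genes of the interval by 31.5 ± 10.8 (SD, n = 4 libraries; exact sign-flip p = 0.12). The median deposited fold over IgG, the authors' own value for a region, was 6.17, 6.81, 7.27 and 7.38 at histone genes and 8.62, 8.21, 10.6 and 9.73 at coding starts. In each library, histone genes thus had the higher share of starts with a FLI1 region and the lower median rank and fold of those regions. Among the other genes of the interval, ZNF165, a zinc finger gene, had folds of 14.9, 21.8, 33.4 and 10.5, the last of them below the highest histone fold of that library (13.0).

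**Figure D3:**
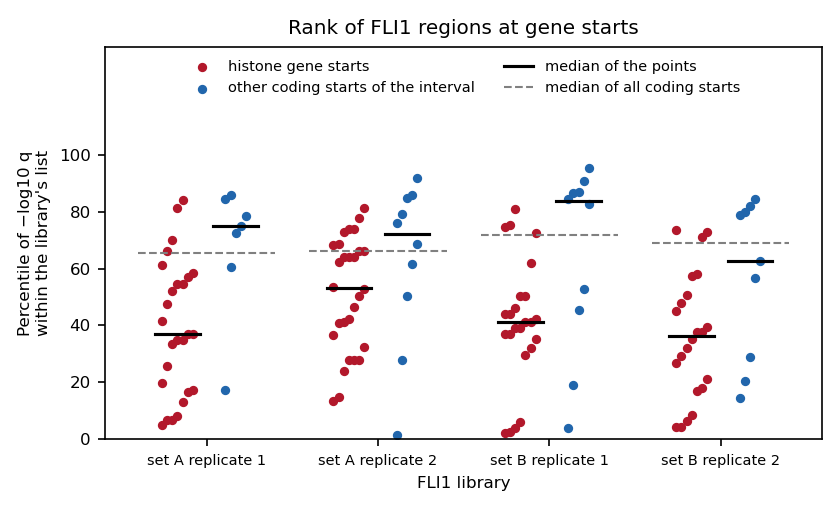
Each point is 1 distinct FLI1 region, the most significant in its window, at a histone gene start (red) or another coding start of the interval (blue); the vertical axis is the percentile of its −log10 q within the library's list, black bars are medians of the points and dashed lines the median over regions at all coding starts. Red medians of 36.4 to 53.3 lie below the dashed lines at 65.6 to 71.8 in each of the 4 libraries.

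Linker histones bind the DNA between nucleosomes. H1-2 (start 26056470) had FLI1 folds of 5.373, 6.001, 7.208 and 7.029, at percentiles from 29.2 to 39.0. Its sole region in B2 began 576 bases downstream of the start. H1-2 was the sole histone gene with FLI1 in every library and H3K27ac in both, a combination found at 8.07% of all coding genes. H1-4 had FLI1 folds of 7.59 in A1, 10.14 in A2 and 6.74 in B1 and no region in B2. H1-3 had 6.17 in A1 and 6.45 in B1 and no region in A2 or B2, and H1-5 had 4.95 in A1 alone. H1-1 and H1-6, the latter a testis-specific gene, had no FLI1 region in any library. FLI1 at H1 genes was thus present in every library at 1 of 6, against 25 of the 47 core histone genes.

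Core histones form the nucleosome itself. H2BC12 and H2AC12 shared the FLI1 region with the highest mean percentile over the 4 libraries, with folds of 13.8, 12.9, 15.4 and 7.95. Its percentile was 81.4 in A1 and A2, 81.0 in B1 and 58.2 in B2. H3C1 and H4C1 are neighbours and shared regions: H4C1 had folds of 8.10, 10.2, 10.8 and 11.5, and H3C1 the same but for 8.77 in A2. Their lowest percentile was 58.3, in A1. H4C3 had 5.03, 7.93, 13.7 and 13.0, low in A1 and high in B1 and B2. H2BC6 had 6.58, 8.77, 13.7 and 11.7, also higher in B1 and B2. These values belong to the 5′ end of a long record (26172059 to 26184655). The stretch searched before that end held none of the searched elements. Its GC content was 67.6%, against a median of 40.4% for H2B genes. Whether the H2BC6 histone messenger starts there was not tested.

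H3C7 had FLI1 folds of 7.592, 9.162, 5.396 and 8.593, lowest in B1. H2AC6 had 14.1 in A1 and 5.95, 7.33 and 7.34 in the others; the high value belonged to a region of 2744 bases that began 997 bases downstream of the start. By class, FLI1 in every library was found at 6 of 11 H2A, 9 of 14 H2B, 5 of 10 H3 and 5 of 12 H4 genes. FLI1 in no library was found at 1 H2A (H2AC14), 1 H2B (H2BC14), 2 H3 (H3C10, H3C11) and 4 H4 genes (H4C6, H4C7, H4C9, H4C13). H4 and H1 genes therefore held 6 of the 10 genes without FLI1.

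FLI1 summits, the points of highest signal, were spread around histone starts. A summit lay within 250 bp of the start at 30.6%, 36.8%, 60.0% and 59.4% of histone genes with a region. The shares over all coding genes with a region were 54.1%, 55.3%, 67.2% and 67.6%, higher in each library. Histone windows shared regions, so the same summit could be counted from neighbouring starts. In A1 a summit 22 bases from the H4C1 start was also counted for H3C1, at 1220 bases. The effect of such sharing on the histone shares was not tested. At the 9 head-to-head pairs of H2A and H2B genes, 169 to 250 bases separate the starts. A FLI1 region reaching both windows was present at 6, 7, 7 and 7 pairs, at 5 pairs in every library and at 1 pair, H2AC14 and H2BC14, in none. In these 27 cases the summit lay between the starts in 0. Over 115 other head-to-head coding pairs with the same spacing, the summit lay between the starts in 10.6%, 15.4%, 28.7% and 23.2% of those with a shared region. Within 100 bases of the summits at histone genes CCGGAA was found at 3.85%, 7.14%, 25% and 13.6% of regions, against 15.6%, 15.7%, 19.7% and 20.2% at coding starts. Runs of 4 or more GGAA units were found at 0 of these histone regions in each library. They were rare at all coding starts too, at 0.665%, 0.679%, 0.319% and 0.428% of regions.

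H3K27ac was sparse at histone genes. Replicate 1 had it at 3 of 53 (5.66%, against 14.7% of all coding genes) and replicate 2 at 7 (13.2%, against 19.6%). The other genes of the interval had 22.7% (5 of 22) and 40.9% (9 of 22). The difference was -17.1 percentage points in replicate 1 and -27.7 in replicate 2, with a mean of -22.4 ± 7.52 (SD, n = 2 libraries); 2 libraries allow no p below 0.5, and none was computed. H3K27ac in both libraries was found at 3 histone genes, 5 others and 11.3% of all coding genes.

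The 3 histone genes with H3K27ac in both libraries were all linker histones. H1-2 had folds of 5.65 and 6.54, in regions at positions -966 to -489 and -954 to -113 from the start. H1-4 had 7.21 and 4.77, with regions at -805 to -462 and -697 to -95. H1-3 had 5.95 and 5.41, in regions that crossed the start. The regions of H1-2 and H1-4 thus ended before the start, and with a window of 250 bp 1 of the 3 genes was left with a region in both libraries. Replicate 2 alone added H1-5 (fold 4.00), H2BC6 (5.52) and the pair H2AC15 and H2BC15, which shared a region (4.79). None of the 47 core histone genes had H3K27ac in both libraries.

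FLI1 and H3K27ac met at few histone genes. Of the 26 histone genes with FLI1 in every library 1 had H3K27ac in both libraries (3.85%) and 24 had it in neither. Of the 6742 coding genes with FLI1 in every library 23.9% had it in both and 3542 had it in neither, so its absence was common beyond histone genes. FLI1 A1 and A2 and both H3K27ac lists were called against the same IgG libraries, so these lists share their controls.

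H3K9me3 was found at histone genes in both libraries and at no other coding gene of the interval. Replicate 1 had it at 11 of 53 (20.8%, against 2.6% of all coding genes) and replicate 2 at 9 (16.98%, against 1.53%). The mean was 18.9% ± 2.67 (SD, n = 2 libraries) against 0% for the 22 others, with no test for the reason given above. H3K9me3 in both libraries was found at 9 histone genes and 1.39% of all coding genes: H1-1, H1-6, H3C6, H4C6, H4C9, H2AC14, H2BC14, H3C11 and H4C13. Replicate 1 added H4C3 and H4C7.

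The H3K9me3 regions were modest in strength. Their deposited folds lay between 4.30 and 5.89 in replicate 1 and between 4.15 and 5.46 in replicate 2, and their −log10 q between 2.99 and 5.58 and between 2.64 and 4.51. The lists begin at a −log10 q of 2.00. With a minimum of 5, H4C6, H4C9, H3C11 and H4C13 were left in replicate 1 (7.55% of 53, against 0.691% of coding genes) and none in replicate 2 (against 0.421%). By rank the regions were not at the bottom of their lists: the median percentile was 75.7 in replicate 1 and 52.5 in replicate 2, against 57.3 and 49.6 at all coding starts with H3K9me3.

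H4C13 (start 27873534) lay within a region of 2835 bases in replicate 1 and 2674 in replicate 2, with folds of 5.63 and 5.46. Seen from the start of H3C11, the same region ended at -625 and -736 bases, and it is the sole H3K9me3 region counted there in replicate 2. H4C6 had folds of 5.54 and 5.17, H4C9 5.89 and 4.81 and H1-6 5.22 and 4.88. The region crossed the start in both replicates at H4C6, H1-6 and H4C13, and in replicate 1 alone at H4C7, H4C9, H2AC14 and H2BC14. H2AC14 and H2BC14 shared a region with folds of 5.47 and 5.17. At H3C6 (5.09 and 4.91) the region began 956 and 967 bases downstream of the start, at the edge of the window. In both replicates it lay inside the long H3C6 record (26224199 to 26227473). At H1-1 (5.07 and 4.15), the first member of the interval, it began 815 and 133 bases downstream. With a window of 250 bp 5 genes had H3K9me3 in both libraries.

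**Figure D4:**
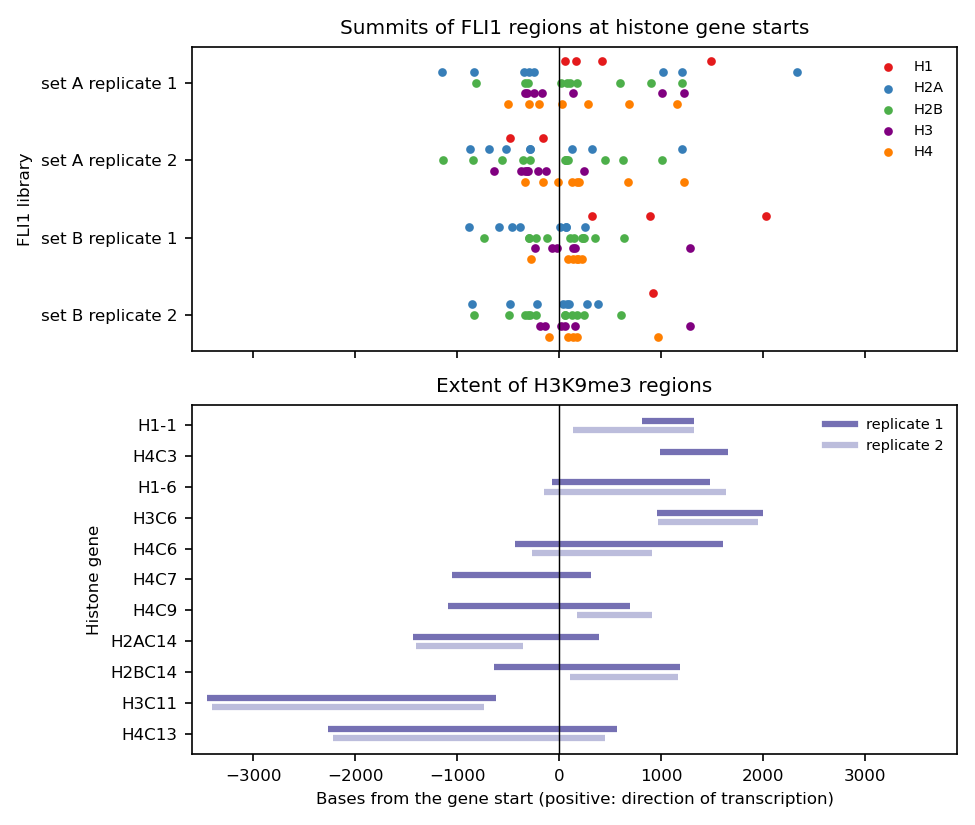
The upper panel plots the summit of the most significant FLI1 region at each histone gene, by library, in bases from the start and coloured by class; the lower panel draws the extent of H3K9me3 regions at the 11 genes that had one, by replicate. FLI1 summits lie on both sides of the start in each library, and H3K9me3 regions cross the start at H1-6, H4C6 and H4C13 in both replicates.

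Of the 10 histone genes with no FLI1, H3K9me3 was present in both libraries at 8 and in at least 1 library at 9. The exception, H3C10, had no region of any antibody. Of the 43 with FLI1 in at least 1 library, H3C6 had H3K9me3 in both libraries and H4C3 in replicate 1 alone. At H3C6 the FLI1 folds were 3.59 and 4.53 in A1 and A2 with no region in B1 or B2, and at H4C3 the H3K9me3 region began 984 bases downstream of the start. No histone gene had both H3K27ac and H3K9me3 in any library, but the combination was rare everywhere, at 0.135% of all coding genes. Over all coding genes H3K9me3 in both libraries was found at 2.32% of the 9175 genes without FLI1 and at 0.504% of the 6742 with FLI1 in every library. In both sets of genes the share was the higher at genes without FLI1. FLI1 B1 and B2 and both H3K9me3 libraries carry the letter B, as do IgG libraries, so these lists may also share controls.

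H3K27me3 was found at 0 of 53 histone genes and 0 of 22 others in both libraries, while 11.5% and 9.8% of all coding genes had a region in replicates 1 and 2 and 9.47% in both. The whole interval held 1 H3K27me3 region in each library, of 0.848 and 0.618 kb. Over all coding genes, 18.4% of those without FLI1 had H3K27me3 in both libraries. The repressive mark recorded at histone genes without FLI1 was H3K9me3 alone.

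**Figure D5:**
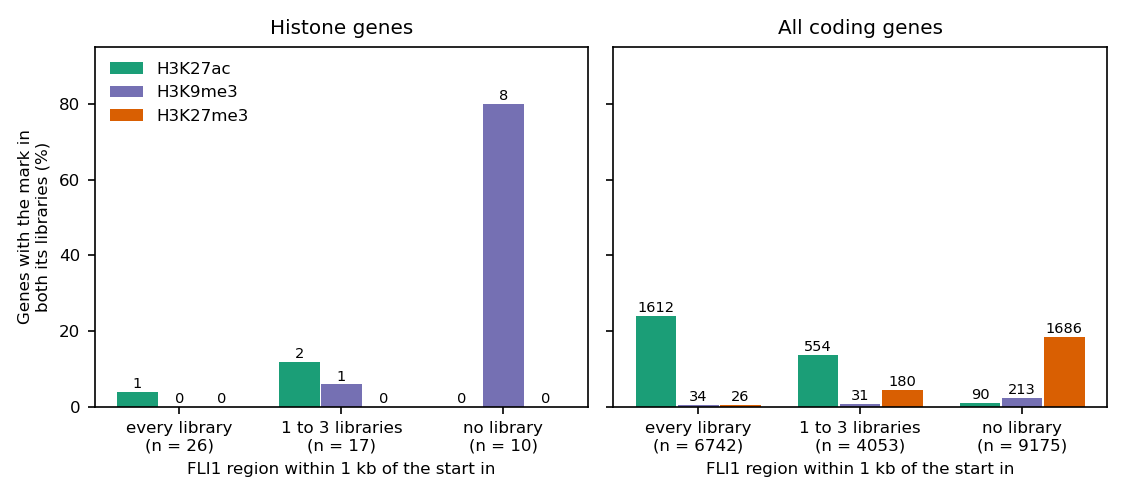
Bars give the percent of genes with H3K27ac, H3K9me3 or H3K27me3 in both libraries of the mark, for genes grouped by FLI1 at the start, with the number of genes above each bar; the left panel shows the 53 histone genes and the right panel all coding genes. H3K9me3 is present at 8 of the 10 histone genes without FLI1, while H3K27me3 (18.4%) is the tallest bar for coding genes without FLI1.

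Most of the interval's H3K9me3 lay away from coding starts. Of 73 regions in replicate 1 and 37 in replicate 2, which covered 137 and 104 kb, 11 and 7 reached a histone window and 62 and 30 reached no coding window. For FLI1, 36 of 92, 41 of 114, 32 of 84 and 26 of 71 regions of the interval reached a histone window. FLI1 regions covered 22.1%, 23.2%, 18.8% and 14.9% of the histone windows, against 11.2%, 15.9%, 13.1% and 11.6% of the other genes' windows. The covered share was the higher at histone genes in each library.

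Genes that act on histone genes were counted in the same way. Of 22 genes for transcription and messenger processing of histones, 18, 16, 20 and 20 had FLI1, where 40.7%, 40.4%, 49.7% and 46.3% of all coding genes did, and 16 had it in every library, against 33.8%. These 16 included NPAT, HINFP, POU2F1, SLBP and CASP8AP2, which encodes the histone locus body protein FLASH. CPSF2, a partner of the nuclease that cuts histone messengers, had FLI1 in no library and H3K27ac in both. H3K27ac was present in both libraries at 6 of the 22, NPAT and CASP8AP2 among them, against 11.3% of all coding genes. H3K9me3 was at 0 of the 22 in each library, where just 2.6% and 1.53% of all coding genes had it. YARS1, a tRNA synthetase gene that was put on the list in error, was counted among the 16 and the 6. Of 10 genes for histone chaperones and their partners, such as CHAF1A, NASP and ASF1B, 8 had FLI1 in every library and 2 had H3K27ac in both, to be read against the same 33.8% and 11.3%.

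Histone genes elsewhere in the genome were counted likewise. Of 17 coding genes with replication-dependent symbols outside the interval, 14, 14, 6 and 7 had FLI1. The shares over all coding genes were 40.7%, 40.4%, 49.7% and 46.3%. Of the 17, 6 had FLI1 in every library, against 33.8% of all coding genes. Presence in A1 and A2 without B1 or B2 was found at 7, against 1.09% of all coding genes. Among the 7 were H3C14, H3C15 and H4C14, which belong to a duplicated stretch of chromosome 1 where reads can be shared between copies. H3K9me3 was at 0 of the 17 in each library, where just 2.6% and 1.53% of all coding genes had it. H2AC19 was the sole gene of the 17 with H3K27ac in both, against 11.3% of all coding genes. Of 26 other histone genes, mostly variants made outside S phase or in testis, 7 had FLI1 in every library, a share below the 33.8% of all coding genes, and 16 had it in none, against 45.9%. H3-3A, H3-3B and H2AZ2, which encode widely used replacement variants, had FLI1 in every library and H3K27ac in both.

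Whole-list checks were few because the files hold regions and not reads. At known targets of the fusion, 6, 7, 6 and 5 FLI1 regions lay within 10 kb of NR0B1, 9, 10, 7 and 5 of NKX2-2 and 9, 16, 10 and 6 of CCND1. Read totals and IgG signal were not analysed here, so the depth behind each region is unknown and a start without a region may hold signal below the authors' threshold.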

How the data were processed

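CUT&RUN regions of TC-32 cells were analysed from 10 deposited lists, 1 for each library. Per the file contents, the authors called regions for each library alone, with its own matched IgG library as control. The submitters' processing notes name Bowtie2, cutadapt 4.4, Picard 2.17.11, MACS2 2.1.1 and hg38; options are not given in the sources used here. The deposited fold is a ratio to IgG, and the deposited significance is −log10 p and −log10 q, as the authors' caller gave them; both were used within a list alone. The deposited score is the authors' −log10 q on another scale and was not used.

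Overlapping regions of a list were merged with the values of the most significant. A gene counted as having a region when 1 base lay within 1 kb of the 5′ end of its GENCODE 44 record. Whether that end is the start of the histone messenger was not tested. Several members, H2BC6 and H3C6 among them, have long records. H3C12 starts at 27893106, inside the H2AC17 record (27892699 to 27893185). H3C12 and H2AC17 were counted on the same FLI1 regions. For each library the share of histone genes was compared with that of the other genes of the interval, with an exact sign-flip permutation over the 4 FLI1 libraries. Genes described in full were all H1 genes, the highest ranked of each class, those without FLI1 and those most covered by H3K9me3. The members, lists and motifs were chosen with earlier results of these data known. RefSeq's table (GRCh38.p14) held 48 of the 53 promoters, 43 with the same start; the printed sequences are from hg38. Alternatives covered the window, start, threshold, overlap, comparison genes, uniqueness of sequence and leaving out libraries. Overlap counting and the uniqueness count were tested on simulated data. Tools were matplotlib 3.10.9, numba 0.67.0, numpy 2.4.6, pandas 2.3.3 and Python 3.11.15.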

Additional observations from a re-analysis of the deposited data

How the results depend on the processing

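The FLI1 difference between histone and other genes of the interval lay between 17.69 and 31.07 percentage points over the 14 alternatives run and was above 0 in every library of each; leaving out a library gave 22.1 to 27.64. The H3K27ac difference was -14.28 within 2 kb, -10.81 with a −log10 q of at least 5 and -7.74 against all coding genes. The H3K9me3 difference was 13.21 within 250 bp, 14.32 from any coding transcript start, 3.77 with a −log10 q of at least 5, 15.09 with at least 250 shared bases and 22.86 with joined windows. The H3K27me3 difference was -10.66 against all coding genes. The 26 histone genes with FLI1 in every library became 17 with a −log10 q of at least 5 and 43 with any library. The 3 with H3K27ac in both became 1 within 250 bp, 7 within 2 kb, 0 with a −log10 q of at least 5 and 7 with either library; leaving out a library gave 3 to 7, the 7 without set A replicate 1. The 9 with H3K9me3 in both became 5 within 250 bp and 0 with a −log10 q of at least 5, which replicate 2 alone decides, since 4 genes pass in replicate 1. The 1 gene with FLI1 in every library and H3K27ac in both became 0 within 250 bp, 4 within 2 kb and 0 with a −log10 q of at least 5; leaving out a library gave 1 to 2, the 2 without FLI1 set B replicate 2 or H3K27ac set A replicate 1. The cause of these changes was not tested. No direction was reversed. The comparisons against all coding genes and without the gene that shares a start with a histone gene were added after the data were seen. No paired analysis was possible because no groups of libraries were compared, so that replicate numbers pair nothing; the differences between groups of genes were already taken within each library. With 2 libraries a mark has no test, and without read totals the depth behind an absent region is unknown.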
